A study of Mus musculus with 9 samples.

Results

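The stromal cells described here were cell barcodes of mouse epididymis chosen by a gate on Sfrp1, Apod and 6 further marker genes. Mgp, which also names them, was not used by the gate. A barcode entered with at least 4 of Sfrp1, Cilp, Apod, Mfap4, Chrdl1, Ogn, Smoc2 and Lbp detected, with Col1a1, Col1a2 and Col3a1 together under 3% of its unique molecular identifiers (UMIs), and with fewer than 3 of the muscle genes Acta2, Myh11, Tagln, Cnn1 and Des detected. The gate took 2447 of the 42087 barcodes (5.81%) that had 300 to 4000 detected genes, at most 20000 UMIs and less than 50% mitochondrial UMIs. Single-cell RNA-seq had been carried out on each segment of the epididymis of untreated wild-type C57BL/6J mice at 42 and 56 days of age. One pool of 5 mice aged 42 days (P42) and 2 pools of 5 mice aged 56 days (P56, replicates 1 and 2) each gave 1 library of the caput, 1 of the corpus and 1 of the cauda, which makes 9 libraries and 3 per segment. The labels name no other allele or agent, every library pooled tissue of 5 mice, and the 3 libraries of a pool shared their mice. Wherever 3 values of a segment are listed, they stand in the order P42, P56 replicate 1, P56 replicate 2.

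The epididymis is a coiled tube in which sperm mature as they pass from the caput through the corpus to the cauda, where they are stored. Its epithelium of principal, basal, clear and narrow cells is wrapped in smooth muscle (myoid) cells and loose connective tissue. Fibroblasts of such connective tissue make collagens, elastic fibres and proteoglycans, and secrete growth factors and modulators of Wnt and BMP signals. Sfrp1 encodes a secreted Wnt-binding protein, Chrdl1 a BMP antagonist, Apod a lipid carrier, Ogn a small leucine-rich proteoglycan, Mfap4 a microfibril-associated protein, Cilp a matrix protein, Smoc2 a matricellular protein and Lbp a lipopolysaccharide-binding protein. Mgp encodes an extracellular inhibitor of calcification and of BMP ligands.

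The 9 libraries held 44869 barcodes and 307987941 UMIs, with 23114756 to 50655384 UMIs per library. The members had a median of 5972 UMIs and 2007 genes, against a median of 5556 UMIs for all 42087 barcodes. The other sets served for comparison. The non-stromal set had fewer than 2 of the 8 gate markers, collagens under 3% and fewer than 3 muscle genes (29775 barcodes, median 5386 UMIs), the collagen-high set had collagens at 3% or more and fewer than 3 muscle genes (1658 barcodes), and the myoid set had at least 3 muscle genes (753 barcodes). No doublet caller was run. Between libraries, 143 barcode sequences occurred more than once, and 24 members carried one of them. Levels below are in counts per 1000000 UMIs (CPM), on the sum of all members of a library without globin genes.

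The gate genes chose the members, so their levels are a description without a test. The 5 markers that define the population were found in 86.3% (Sfrp1), 32.0% (Cilp), 87.6% (Apod), 62.2% (Mfap4) and 47.4% (Chrdl1) of the members, against 6.85%, 0.427%, 22.1%, 1.60% and 0.725% of non-stromal barcodes. Exactly 4 of the 8 gate markers were detected in 1036 members, 5 in 555, 6 in 417, 7 in 262 and all 8 in 177, while 2126 barcodes met every other limit with 3. At the collagen limit, 136 members lay between 2.5% and 3%, and 138 barcodes with 4 or more gate markers lay between 3% and 3.5%. In all, 1120 barcodes had 4 or more gate markers and collagens at 3% or more. Of the members, 1337 had none of the 5 muscle genes and 283 had 2.

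Sfrp1, Cilp and Chrdl1 were lowest in the cauda within each pool. Sfrp1 stood at 803, 694 and 552 CPM in the caput, 1054, 696 and 420 in the corpus libraries and 485, 273 and 197 in the cauda. Apod stood at 2332, 2881 and 2252 in the caput, 991, 939 and 754 in the corpus libraries and 620, 1175 and 767 in the cauda. The caput libraries were thus the highest for Apod without overlap, while the ranges of Sfrp1 in caput and corpus overlapped. Cilp stood at 419, 171 and 129 in the caput, 118, 46.6 and 15.8 in the corpus libraries and 85.6, 19.0 and 5.74 in the cauda. Chrdl1 stood at 398, 222 and 140 in the caput, 265, 179 and 93.4 in the corpus libraries and 118, 43.0 and 29.8 in the cauda. Lbp had its 3 highest libraries in the corpus (784, 594 and 369), above the caput (304, 173 and 154) and the cauda (324, 165 and 120). Within each segment the P42 library held the highest level of Sfrp1, Cilp, Chrdl1 and Lbp.

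Mgp, which the gate did not read, was found in 93.8% of the members and in 28.6% of non-stromal barcodes. Its level was 4402, 2328 and 1532 CPM in the caput, 5158, 2892 and 1897 in the corpus libraries and 1921, 1650 and 881 in the cauda. The member level exceeded the non-stromal level in each of the 9 libraries, by a median of 27.2 times (4.39 to 75.5). The ranges of the segments overlapped.

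**Figure D1:**
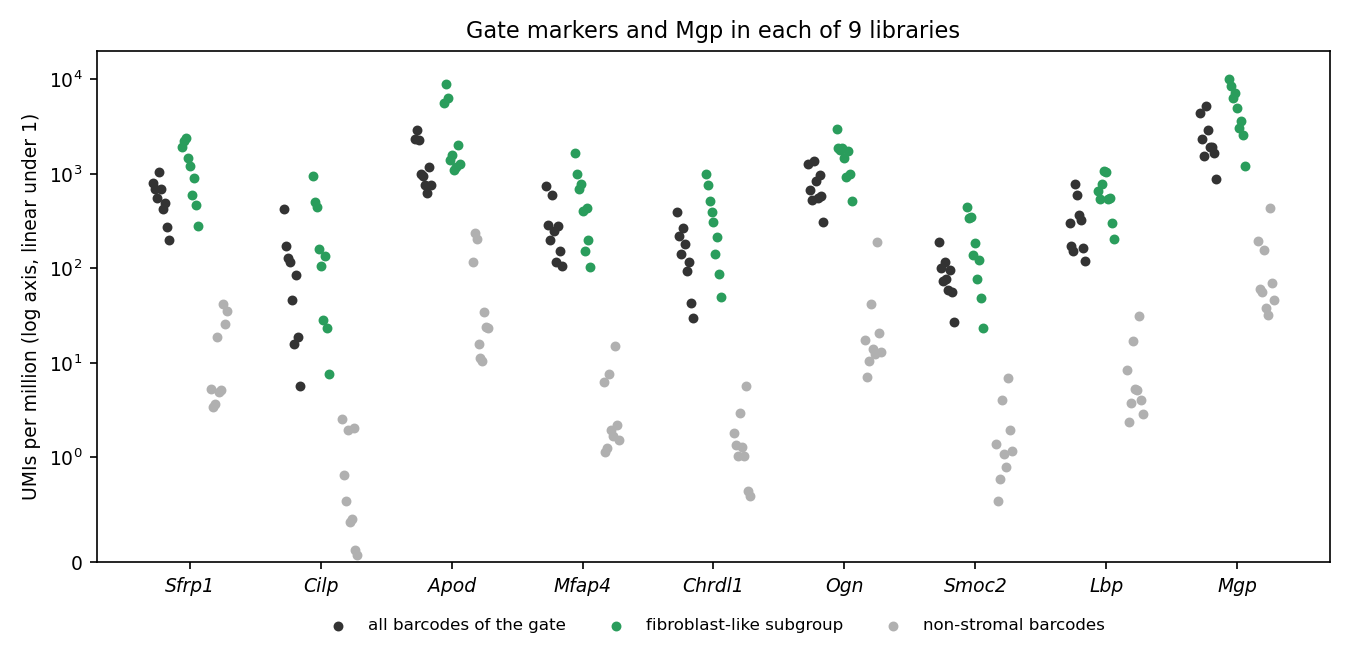
Levels of the 8 gate markers and of Mgp, with 1 point per library, in all members (black), the fibroblast-like subgroup of them described below (green) and non-stromal barcodes (grey), in CPM on an axis that is logarithmic above 1 and linear below. The members and the non-stromal barcodes were furthest apart in the gate markers, which chose them, and Mgp was higher in the members by a median of 27.2 times.

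The label of stromal cell held for some of the members and not for others. Of 16 fibroblast markers outside the gate (Dcn, Lum, Gsn, Pdgfra, Dpt, Col6a1 and others), members had a median of 8 detected, collagen-high barcodes 13 and non-stromal barcodes 1. At least 3 of them were found in 96.0% of members and in 19.4% of non-stromal barcodes. However, at least 3 of 19 markers of principal cells were found in 85.5% of members, against 92.1% of non-stromal barcodes, and at least 3 of 11 macrophage markers in 26.2% against 12.2%. For markers of clear and narrow cells these shares were 21.3% and 22.6%, for basal cells 11.4% and 8.5%, for sperm 5.60% and 4.18%, and for endothelial cells 3.72% and 2.18%. At least 3 of 5 globin genes of red blood cells were found in 64.9% of members and 43.5% of non-stromal barcodes, and globins took 0.0130% to 2.56% of the members' UMIs per library against 0.0330% to 4.61%. Markers of pericytes, Schwann cells and mesothelium reached 3 detected genes in at most 0.368% of members. The fibroblast markers became more numerous with the number of gate markers, from a median of 4 with 3 gate markers (outside the gate) and 6 with 4, to 10 with 6 and 11 with all 8.

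Leiden clustering of the members on 2000 variable genes, at a resolution of 0.3, gave 7 subgroups. The largest, with 867 members (35.4%), was led by Pi16 and Cd55, which mark adventitial fibroblasts. Car3, a gene of fat cells, came next, followed by Krtdap, Fst, Gfpt2 and Il6. Mfap5 and Fbn1, which encode microfibril proteins, stood at ranks 8 and 9. The 867 members had a median of 11 fibroblast markers and of 1.06% collagen UMIs, and the subgroup is called fibroblast-like below. It was picked as the subgroup with the highest median share of UMIs from the fibroblast markers. Subgroup 7 had the same median of 11 and 1.07% collagen, with macrophage genes in the lead. The other 6 subgroups were led by genes of other epididymal cells and are given here by their number. Subgroup 2 (555 members) was led by the protamine gene Prm1 and the principal cell gene Spint4, subgroup 3 (355 members, 347 of them from the caput) by Cstdc2, Cst12 and Lcn9, and subgroup 6 (147 members) by Pate13, Defb15 and Lcn5. Subgroup 4 (221 members) was led by Smbd1, Napsa and Stap1 and also by Foxi1, a transcription factor of clear cells, and 86.4% of its members had at least 3 clear and narrow cell markers. In subgroup 5 (157 members), led by Gpihbp1, Krt5 and Ly6d and also by Flt1, 74.5% had at least 3 basal cell markers. At least 3 endothelial markers were found in 22.9% of its members and at least 3 pericyte markers in 4.46%. In subgroup 7 (145 members, 90 of them from the P42 cauda), led by Mrc1, F13a1 and Ccl8, 99.3% had at least 3 macrophage markers.

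The fibroblast markers took 2.44% of the UMIs of the fibroblast-like subgroup, 1.49% of subgroup 7 and 0.469% to 0.811% of the others, against 0.0494% in non-stromal barcodes. The fibroblast-like subgroup was picked by this list, so its place above the other subgroups was set by that choice. Principal cell markers took 14.7% of the UMIs of subgroup 3 and 8.73% of subgroup 6, against 6.16% in non-stromal barcodes and 1.80% in the fibroblast-like subgroup. The fibroblast-like subgroup had the lower median depth, with 4719 UMIs against 7765 in subgroup 3. It made up 36.5%, 21.1% and 4.52% of the members in the caput libraries, 60.9%, 53.6% and 48.5% in the corpus libraries and 32.8%, 37.9% and 37.7% in the cauda. The subgroup held 138, 37 and 16 barcodes in the caput and 229, 67 and 48 in the corpus libraries. In the cauda it held 151, 106 and 75. Its outline depended on the clustering. Picked in the same way, the subgroup had 1604 members at a resolution of 0.15, of which 866 were among the 867. At 0.6 it was 1 of 13 subgroups and had 63 members, all of them among the 867. Whether barcodes with markers of other cells held RNA of more than one cell was not tested. The segmental and age counts, and many of the named genes, are therefore also given for the fibroblast-like subgroup alone, an alternative chosen after seeing the data.

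Beyond the gate genes, the genes that stood furthest above the non-stromal level were chosen by their ratio. The 20 leading genes had median ratios of 31.3 (Gpc3, a cell surface proteoglycan) to 47.4 (Clec3b, the plasminogen-binding protein tetranectin). A ratio of at least 2 in each of the 9 libraries was a condition of the choice and is not a result. They included the fibroblast gene Pi16 (42.8 times), the matrilin Matn2 (41.3), the cytoglobin gene Cygb (39.6), the IGF-binding protein gene Igfbp6 (37.7), the procollagen proteinase Adamts2 (37.2) and the microfibril gene Mfap5 (36.0). The complement inhibitor Serping1 (35.8), the complement component C7 (32.6) and the procollagen enhancer Pcolce (33.5) were also among them. The others were Ms4a4d, Abi3bp, Htra3, Crispld1, Serpinf1, Pi15, Dpep1, Fbln1 and Col6a2.

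Dcn, which encodes the proteoglycan decorin, was a fibroblast marker with UMIs in every library. It stood at 5116, 3488 and 2895 CPM in the caput, 9514, 6206 and 5366 in the corpus libraries and 8458, 5488 and 3683 in the cauda. Clec3b stood at 274, 217 and 173 in the caput, 812, 873 and 573 in the corpus libraries and 590, 191 and 124 in the cauda. The corpus libraries of Clec3b overlapped with the P42 cauda and with no caput library. Averaged over libraries, Clec3b stood at 899 in the fibroblast-like subgroup and at 218 in the other members, and Dcn at 11274 and 3261.

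The share of members among the kept barcodes did not separate the segments. It was 8.98%, 3.59% and 7.21% in the caput, 8.24%, 2.64% and 2.20% in the corpus libraries and 10.0%, 5.76% and 4.08% in the cauda (means 6.60% ± 2.75, 4.36% ± 3.37 and 6.63% ± 3.07, SD, n = 3). The corpus was lowest in each of the 3 pools while the ranges overlapped, and a two-sided exact permutation test of the segment labels within pools gave p = 0.222 (the smallest p it allows is 0.0278). The order turned in other counts of the same barcodes. The fibroblast-like subgroup described above took a larger share in the corpus than in the caput in each pool (mean difference 1.05 percentage points, against -2.23 for all members), and with carriers of other cells' markers left out the difference was 0.0960. The number of gate markers detected in a barcode can depend on its depth. After thinning every barcode to 1000 UMIs, which left out 0 to 381 barcodes per library, the means were 2.22% in the caput, 1.39% in the corpus libraries and 0.616% in the cauda (exact permutation p = 0.0278). These shares rest on 189, 53 and 52 members in the caput and 140, 37 and 14 in the corpus libraries. In the cauda only 63, 14 and 3 were left.

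Mitochondrial transcripts, which the study compared between segments, were lowest in the members of the caput. They made up 6.16%, 6.93% and 6.36% of the members' UMIs in the caput, 10.8%, 18.4% and 19.7% in the corpus libraries and 9.76%, 17.5% and 15.8% in the cauda. All 6 libraries of corpus and cauda lay above the 3 of the caput. The means were 6.48% ± 0.401, 16.3% ± 4.81 and 14.3% ± 4.05 (SD, n = 3; exact permutation p = 0.0278, the smallest possible, and 0.0417 after Benjamini-Hochberg adjustment over 3 tests). Non-stromal barcodes of the same libraries had 6.78% ± 0.158, 19.2% ± 3.79 and 15.8% ± 2.03 (p = 0.0278, adjusted 0.0417, exact permutation). In the fibroblast-like subgroup alone the means were 7.03%, 15.9% and 14.2% with an exact permutation p of 0.0833, and with at least 5 gate markers the p was 0.0556.

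Segments were compared gene by gene on the UMI sums of the members with edgeR's quasi-likelihood F test, with pool as a blocking factor and Benjamini-Hochberg adjustment over all genes tested. A gene was called at an adjusted p under 0.05 with the highest segment at least 2 times the lowest (a log2 difference of 1). Of 10693 genes, 1578 (14.8%) were called, and the highest segment was the caput for 678 (6.34%), the corpus for 384 (3.59%) and the cauda for 516 (4.83%). The corpus was above the caput in 588 genes (5.5%) and below it in 549 (5.13%), 1137 in all (10.6%). The cauda was above the caput in 696 (6.51%) and below it in 673 (6.29%), 1369 in all (12.8%), and it was above the corpus in 133 (1.24%) and below it in 144 (1.35%), 277 in all (2.59%). Some of these genes stood above the non-stromal level. At least 2 times the non-stromal level in every library of their highest segment was reached by 23 of the 678 caput genes, 134 of the 384 corpus genes and 34 of the 516 cauda genes. Of the 10693 tested, 370 reached it in every library of all segments, a stricter condition, so that share is not a like background. All 19 principal cell markers were called as segmental in the members, 14 of them highest in the caput, and their sum took 6.09% to 13.2% of the members' UMIs in the caput, 0.775% to 1.96% in the corpus libraries and 0.582% to 2.66% in the cauda. In non-stromal barcodes the same sum took 8.20% to 15.4%, 1.35% to 2.92% and 0.684% to 3.004%. Mgp was not called in the members (edgeR adjusted p = 0.0606) and fell from caput to cauda in the fibroblast-like subgroup (log2 -1.53, SE 0.28, edgeR adjusted p = 0.00448). In that subgroup alone, 476 of 6904 genes (6.89%) were called, with the caput highest for 202 (2.93%), the corpus for 83 (1.2%) and the cauda for 191 (2.77%). Its sums held fewer barcodes than those of all members, from 16 in the P56 replicate 2 caput to 229 in the P42 corpus. A gene not called there is therefore not shown to be equal between segments. The 2 lists shared 437 genes, which was 27.7% of the members' list and 91.8% of the subgroup's, and 414 of them had the same highest segment.

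Hox genes, which encode transcription factors that record position along the body axis, differed along the duct. Of 18 Hox genes tested, 15 were called in the members, with the caput highest for 11, the corpus for 3 and the cauda for 1, against 14.8% called among all genes (6.34%, 3.59% and 4.83% by highest segment). The fibroblast-like subgroup had 9 of 17 called (5, 3 and 1; 6.89% of all its genes were), and without the pool as a block 8 of the members' genes were called. Of the 15, Hoxb6, Hoxb7, Hoxb8, Hoxb9, Hoxd4 and Hoxd9 stood at or below the non-stromal level. The others split by their number in the cluster.

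Hoxc8 fell along the duct. It stood at 199, 102 and 71.3 CPM in the caput, 82.9, 50.3 and 30.1 in the corpus libraries and 13.8, 6.47 and 0.522 in the cauda. Every cauda library lay below every library of the other segments, with a log2 difference of cauda minus caput of -4.11 (SE 0.33, edgeR adjusted p = 9.61e-06). In the fibroblast-like subgroup the difference was -4.19 (edgeR adjusted p = 6.39e-07). Hoxa7 stood at 78.2, 63.8 and 41.6 in the caput, 29.2, 11.2 and 6.33 in the corpus libraries and 8.02, 4.16 and 4.18 in the cauda, without overlap of the caput with the others (log2 -3.35, SE 0.31, edgeR adjusted p = 2.2e-05; 5.85e-06 in the fibroblast-like subgroup). Hoxa5, Hoxc6 and Hoxc4 were also highest in the caput and lowest in the cauda, with log2 differences of cauda minus caput of -2.66 (SE 0.42), -2.12 (SE 0.32) and -2.27 (SE 0.44), and the call of Hoxc4 was lost without the pool as a block (edgeR adjusted p = 0.189), without P56 replicate 1 (0.0755) or without P56 replicate 2 (0.0639).

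Apart from Hoxb9 and Hoxd9, which were highest in the caput, the called genes of paralog groups 9 and 10 had another order. Hoxc9 stood at 34.9, 12.4 and 14.5 CPM in the caput, 125, 70.8 and 63.3 in the corpus libraries and 29.0, 10.2 and 3.65 in the cauda. All corpus libraries were above all others, by a log2 difference of 2.14 over the caput (SE 0.29) and of 2.62 over the cauda (SE 0.30, edgeR adjusted p of the F test 7.52e-05; 0.00631 in the fibroblast-like subgroup). Hoxa9 was likewise highest in the corpus, at 37.0, 39.1 and 20.6 against 11.01, 14.1 and 2.97 in the caput (log2 1.92, SE 0.36). Hoxc10 was found with 1 UMI in all caput members and stood at 35.4, 9.31 and 12.7 in the corpus libraries and 20.2, 13.4 and 1.57 in the cauda (edgeR adjusted p = 0.00107). Hoxa10 rose toward the cauda, with 4.93, 13.2 and 3.34 in the caput, 21.4, 11.2 and 9.502 in the corpus libraries and 79.8, 22.7 and 10.4 in the cauda (log2 cauda minus caput 2.43, SE 0.49, edgeR adjusted p = 0.00995). Its ranges overlapped between neighbouring segments, its call was lost without the pool as a block, and the fibroblast-like members of the caput had no UMI of it.

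**Figure D2:**
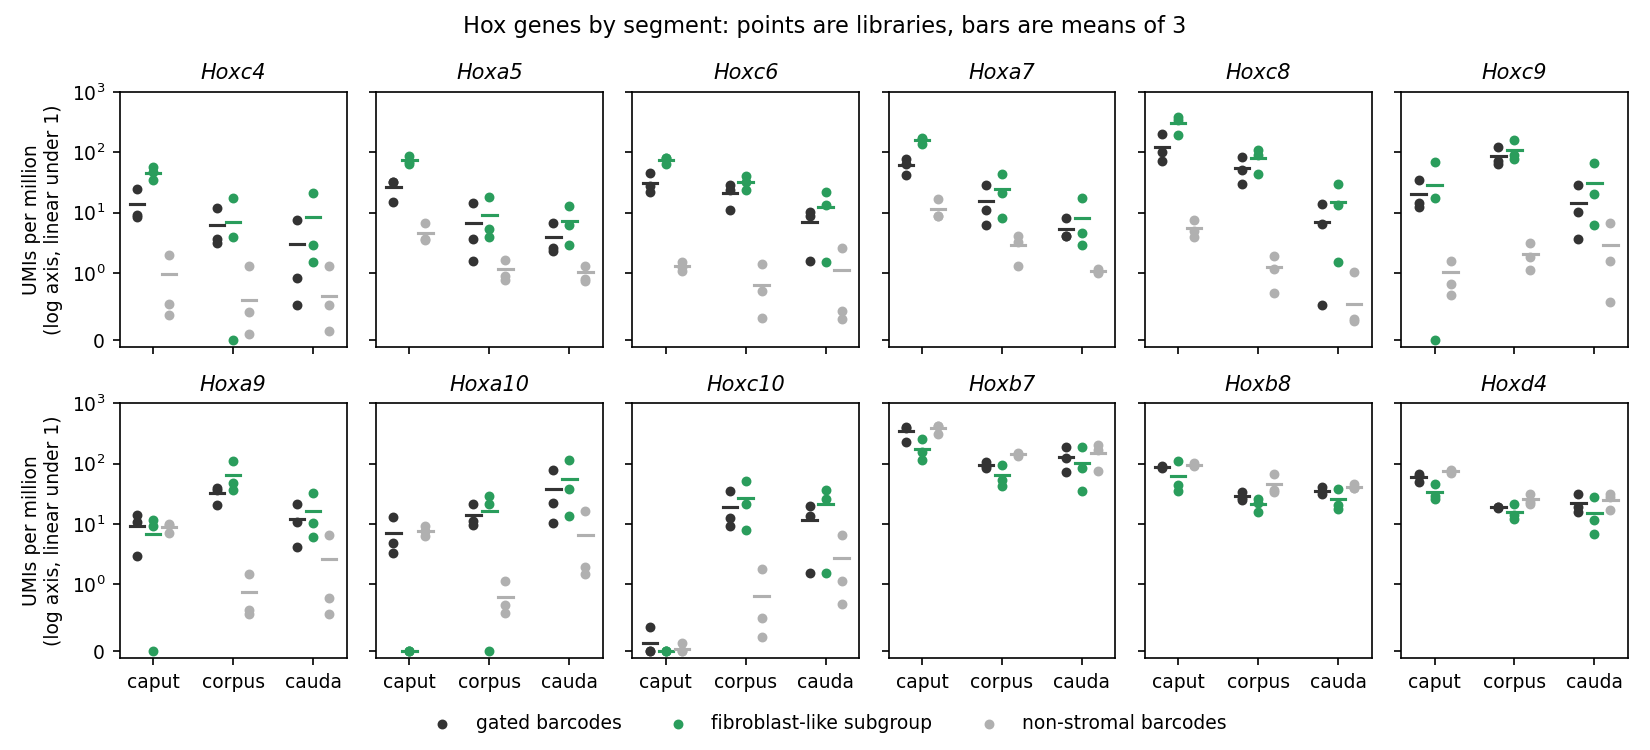
Levels of 12 Hox genes by segment in all members (black), the fibroblast-like subgroup (green) and non-stromal barcodes (grey), with 1 point per library and a bar at the mean of 3, in CPM on an axis that is logarithmic above 1 and linear below. In the members Hoxc8 and Hoxa7 were lowest in the cauda and Hoxc9 and Hoxa9 highest in the corpus, while Hoxb7, Hoxb8 and Hoxd4 lay at or below the non-stromal level.

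By the rule for named genes, the 8 called genes with the largest difference were taken for each segment, with the same highest segment in each pool and at least 2 times the non-stromal level in the libraries of that segment. In the caput these were Hoxc8, Hoxa7, Hoxa5, Hoxc4, Inhba, Sln, Fbln7 and Itga8. Inhba, which encodes the activin A subunit, stood at 93.4, 55.5 and 26.7 CPM in the caput, 14.6, 11.2 and 9.502 in the corpus libraries and 16.8, 3.24 and 3.13 in the cauda. The caput libraries were above all others, with a log2 difference of cauda minus caput of -2.85 (SE 0.33, edgeR adjusted p = 8.56e-05). It was called in the fibroblast-like subgroup as well (edgeR adjusted p = 1.17e-05). Sln, which encodes a regulator of the calcium pump of muscle, gave 77 UMIs in the caput and 3 in the corpus, a ratio of 12.1 (95% counting interval 3.996 to 60.1). Itga8, an integrin subunit, gave 68 and 3 UMIs, a ratio of 10.7 (3.51 to 53.2), and the fibulin gene Fbln7 stood at 29.2, 12.4 and 8.54 in the caput against at most 5.21 in any other library. The call of Sln was lost without P56 replicate 1 (edgeR adjusted p = 0.0935) or its caput library alone (0.0839), and that of Itga8 without P56 replicate 1 (0.0632), P56 replicate 2 (0.0742) or the P42 caput (0.0779). Sln, Fbln7 and Itga8 were too low to be tested in the fibroblast-like subgroup.

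In the corpus the rule named Iyd, Ccl11, Sult1e1, Hhip, Adgrd1, Shisa3, Krtdap and Gfpt2. Hhip encodes a membrane antagonist of hedgehog ligands. It stood at 18.6, 9.11 and 6.68 CPM in the caput, 167, 108 and 71.3 in the corpus libraries and 36.7, 16.7 and 5.74 in the cauda. The corpus was above both others without overlap, by log2 differences of 3.38 over the caput (SE 0.26) and 2.55 over the cauda (SE 0.25, edgeR adjusted p = 2.56e-06), and by 3.57 over the caput in the fibroblast-like subgroup (edgeR adjusted p = 3.84e-05). Sult1e1, the oestrogen sulfotransferase, stood at 74.0, 40.6 and 30.8 in the caput, 531, 462 and 434 in the corpus libraries and 425, 73.5 and 64.7 in the cauda. Here the P42 cauda came close to the corpus while the P56 cauda libraries did not, and the corpus exceeded the caput by a log2 difference of 3.49 (SE 0.38, edgeR adjusted p = 0.000116). Ccl11, the eosinophil chemokine eotaxin, stood at 22.9, 29.8 and 15.8 in the corpus and at most 2.60 in the caput (log2 3.66, SE 0.64, edgeR adjusted p = 0.00501; 0.0392 in the subgroup). Iyd, an iodotyrosine deiodinase, gave 34 UMIs in the corpus libraries and 3 in the cauda, a ratio of 24.6 (7.73 to 125), and its call was lost without P56 replicate 1 (edgeR adjusted p = 0.0589). The calls of Adgrd1 and Shisa3 were lost without the replicate block (edgeR adjusted p = 0.131 and 0.0540) and when any of several libraries was left out (up to 0.130 and 0.199). Krtdap and Gfpt2, an enzyme of the hexosamine pathway, were called in all members (log2 corpus minus caput 3.07, SE 0.49, and 2.999, SE 0.33) and not in the fibroblast-like subgroup (edgeR adjusted p = 0.378 and 0.111).

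In the cauda the rule named Sfrp2, Sfrp4, Ctla2a, Cpxm2, Cxcl14, Igfbp5, Hoxa10 and Ccdc80. Ctla2a, a cysteine protease inhibitor, stood at 45.9, 33.1 and 48.6 CPM in the caput, 135, 101 and 69.7 in the corpus libraries and 422, 344 and 249 in the cauda. The 3 segments did not overlap, and the cauda exceeded the caput by a log2 difference of 3.14 (SE 0.24) and the corpus by 1.88 (SE 0.23, edgeR adjusted p = 3.76e-06). The difference from the caput was 3.36 in the fibroblast-like subgroup. Sfrp2, a secreted Wnt modulator of the family of Sfrp1, gave 73 UMIs in the cauda (8.40, 12.5 and 12.5 CPM) and none in the corpus, so it was at least 11.2-fold higher in the cauda than in the corpus (floor of 3 counts over the segment). Sfrp2 was not among the genes called in the fibroblast-like subgroup. Sfrp4, of the same family, stood at 2.66, 5.80 and 1.48 in the caput, 22.9, 14.9 and 9.502 in the corpus libraries and 50.8, 17.1 and 14.6 in the cauda (log2 cauda minus caput 3.29, SE 0.43, edgeR adjusted p = 0.000614). Igfbp5, an IGF-binding protein, stood at 77.1, 48.9 and 21.2 in the caput, 79.7, 26.1 and 22.2 in the corpus libraries and 357, 166 and 116 in the cauda, which was above both other segments without overlap (log2 over the corpus 2.47, SE 0.26, edgeR adjusted p = 1.41e-05). It was not called in the fibroblast-like subgroup (edgeR adjusted p = 0.0531). The call of Cpxm2, a carboxypeptidase-like gene, was lost without P56 replicate 1 (edgeR adjusted p = 0.0687) or with carriers of other cells' markers left out (0.0898). Cxcl14, a chemokine, stood at 296, 382 and 182 in the cauda against 43.8 to 158 in the caput and 17.4 to 139 in the corpus (log2 over the corpus 2.52, SE 0.42, edgeR adjusted p = 0.00102; 0.0308 in the subgroup).

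**Figure D3:**
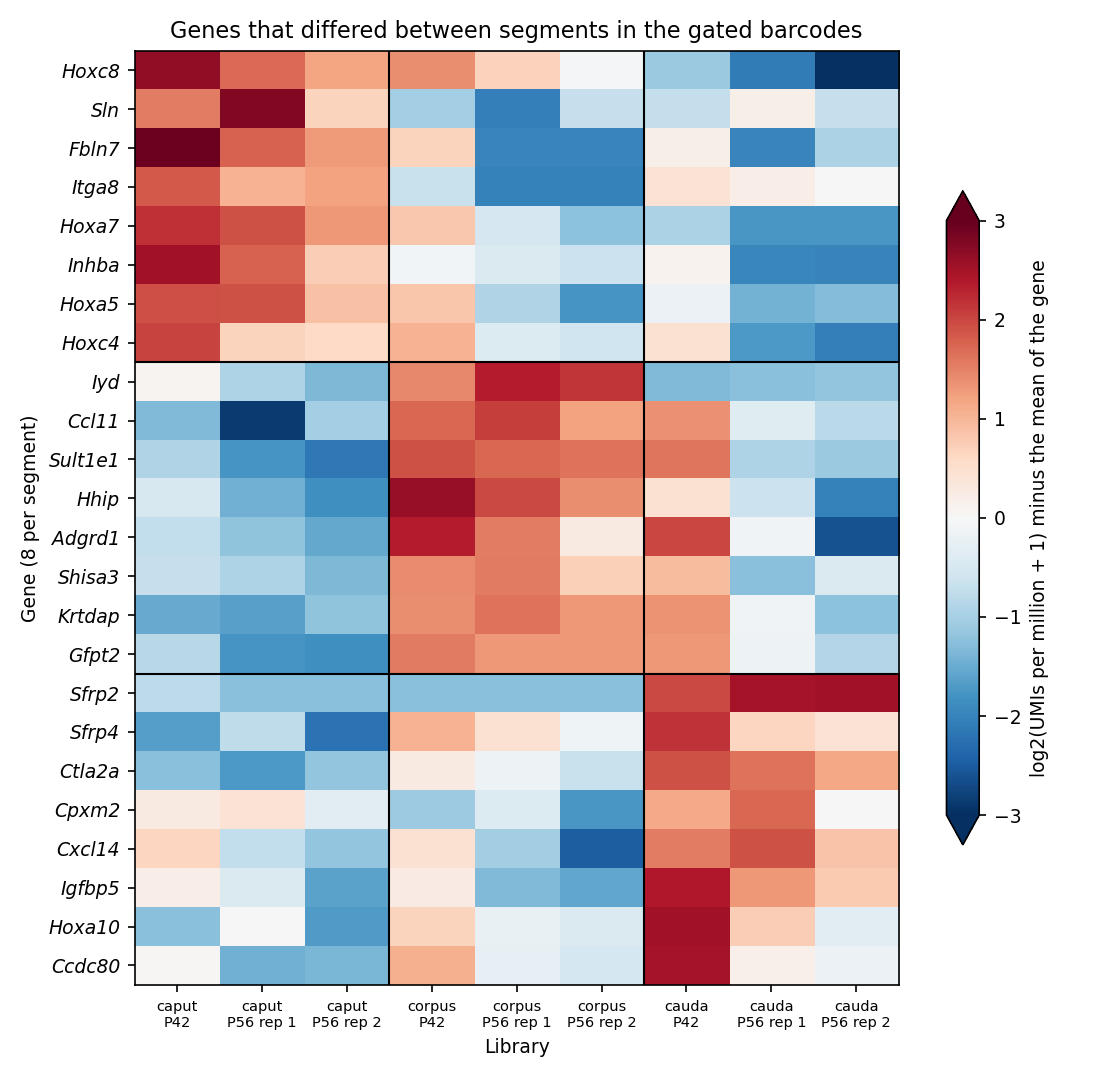
Heat map of the 8 named genes of each segment (rows, caput genes at the top) in the members of the 9 libraries (columns), as log2 of CPM plus 1, minus the gene's mean over libraries, with red above and blue below that mean. Inhba was above its mean in the 3 caput libraries, Hhip was highest in the 3 corpus libraries, and Ctla2a was above its mean in the 3 cauda libraries.

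Complement genes, which encode a cascade of plasma proteins that marks microbes and dying cells, were mostly highest in the corpus among those called. Of 10 tested, 8 were called (7 highest in the corpus, 1 in the cauda), with 2 called in the fibroblast-like subgroup (C1ra and C3), against 14.8% and 6.89% of all genes. In the members 4 were called without the pool as a block and 4 without P56 replicate 1. The central component C3 stood at 23.2, 4.97 and 11.1 CPM in the caput, 197, 207 and 66.5 in the corpus libraries and 320, 64.7 and 49.6 in the cauda. The caput libraries were below all others, by log2 differences of 3.57 to the corpus (SE 0.43) and 3.27 to the cauda (SE 0.41, edgeR adjusted p = 0.000209). C1ra, a protease of the first component, was higher in the corpus than the caput by a log2 difference of 1.57 (SE 0.22).

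Of 18 cytokine and chemokine genes tested, 12 were called, and the caput was highest for 1, the corpus for 6 and the cauda for 5. The fibroblast-like subgroup had 8 of 16, and the members had 8 without the block, where 14.8% of all genes were called in the members and 6.89% in the subgroup. Cxcl12, which guides cells that carry CXCR4, stood at 350, 176 and 182 CPM in the caput, 1094, 654 and 423 in the corpus libraries and 974, 427 and 280 in the cauda (log2 corpus minus caput 1.61, SE 0.20, edgeR adjusted p = 0.000371; 0.00367 in the fibroblast-like subgroup). Within each pool the order was corpus, cauda, caput, while the ranges of corpus and cauda overlapped. Il33, an alarm cytokine, differed in the same direction by 1.86 (SE 0.24) and was not called in the subgroup (edgeR adjusted p = 0.0879), and Il6 stood at 66.2, 22.4 and 61.8 in the corpus against at most 3.31 in the caput (log2 5.11, SE 0.76, edgeR adjusted p = 0.00139). Cxcl1, Ccl7, Ccl8 and Cxcl2 were called as well, at median ratios to the non-stromal level of 1.34, 1.17, 0.738 and 0.582.

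Among genes of BMP, TGF-beta and activin signalling, 11 of 20 tested were called (the caput highest for 2, the corpus for 5 and the cauda for 4), and 4 of 18 in the fibroblast-like subgroup (Fst, Id1, Id3 and Inhba), against 14.8% and 6.89% of all genes tested. Without the replicate block the caput was highest for 2 called genes and another segment for 4. Fst, which binds and blocks activin, stood at 4.17, 2.48 and 2.97 CPM in the caput, 48.5, 26.1 and 47.5 in the corpus libraries and 110, 17.1 and 11.5 in the cauda. Its caput libraries, where Inhba was highest, were the lowest of all, and the log2 difference to the corpus was 3.78 (SE 0.58, edgeR adjusted p = 0.000995). Id3, an inhibitor of DNA binding that BMP signals induce, stood at 233, 64.6 and 51.6 in the caput, 428, 203 and 315 in the corpus libraries and 837, 928 and 884 in the cauda. The cauda was above both others without overlap (log2 cauda minus caput 3.42, SE 0.45, edgeR adjusted p = 0.000428), at a median of 3.25 times the non-stromal level. Id1 differed by 3.58 (SE 0.47), and its level was 1.21 times the non-stromal one. For Wnt signalling, 6 of 16 genes were called (1 highest in the corpus, 5 in the cauda), and Sfrp2 and Sfrp4 above were 2 of the 6. In the fibroblast-like subgroup 3 of 11 were called, with the caput highest for 2 and the cauda for 1, against the same shares of all genes. The 6 became 3 without the replicate block or with library sizes unscaled, 2 without either P56 replicate and 1 with at least 5 gate markers.

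Counts of fibroblast and matrix genes differed between all members and the fibroblast-like subgroup, and that difference was not itself tested. Of the 16 fibroblast markers, 11 were called in the members (7 highest in the corpus, 4 in the cauda), 0 in the fibroblast-like subgroup by edgeR's test (4 at an unadjusted p under 0.05), and 1 in the members without the pool as a block. The subgroup was picked by these same 16 markers, so its count for them is not an independent check. For the lists of this paragraph the shares of all genes called were 14.8% in the members and 6.89% in the subgroup. Without P56 replicate 1 the 11 became 4, and without P56 replicate 2 they became 5. Of 18 matrix enzymes and inhibitors, 10 were called (9 highest in the corpus), against 1 in the fibroblast-like subgroup, 1 without the block and 5 and 6 without P56 replicates 1 and 2. Of 21 genes of elastic fibres and matricellular proteins, 10 were called against 5 (2 without the block and 6 without P56 replicate 1), and of 12 basement membrane genes 4 against 0 of 11 (3 at an unadjusted p under 0.05; 1 in the members without the block). Postn, which encodes the matricellular protein periostin, was called in both. It stood at 17.5, 16.6 and 5.57 CPM in the caput, 183, 70.8 and 44.3 in the corpus libraries and 121, 14.3 and 11.5 in the cauda (log2 corpus minus caput 2.91, SE 0.43, edgeR adjusted p = 0.00136). The fibroblast-like subgroup was 21.1% of the members of the caput, 57.3% of those of the corpus and 35.3% of those of the cauda. The part of that mixture in these counts was not tested.

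Of 18 genes of the early response to stress and tissue dissociation, 12 were called, all highest in the cauda, and 7 in the fibroblast-like subgroup, against 14.8% and 6.89% of all genes. Fos stood at 3535, 1048 and 717 CPM in the caput, 4720, 2683 and 2844 in the corpus libraries and 5128, 2936 and 2359 in the cauda, at 1.71 times the non-stromal level. Without the pool as a block 3 of the 18 were called, without P56 replicate 1 there was 1 and without P56 replicate 2 there were 8. Their part in the other segmental results was not tested.

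The ages were compared as P56 minus P42 averaged over the 3 segments, in an edgeR model that gave each segment at each age its own mean. There was 1 pool of P42 mice, so age and pool cannot be told apart. The column prefix of its libraries in the deposited matrix carries no age. They were taken as P42 from how the study names its P42 cells and since the other prefixes match the P56 titles, and every age value rests on that. Of 12896 genes, 1162 (9.01%) were called, 344 higher at P56 (2.67%) and 818 lower (6.34%). The model treats the libraries of a pool as separate although they share mice. Sums over the segments of each pool left 211 calls, and without the P42 cauda there were 355, of which 156 were higher and 199 lower. With library sizes left unscaled by TMM the split was 110 higher and 2032 lower, since the scaling moved the median log2 difference of all genes from -0.45 to -0.04. None of the 344 higher genes reached 2 times the non-stromal level in every P56 library, and 279 of the 818 lower genes reached it in every P42 library. These counts rest on different numbers of libraries, and no such share was counted over all genes tested for age. In the fibroblast-like subgroup 211 genes were higher (2.3%) and 283 lower (3.08%) of 9176. The lists shared 142 higher genes (41.3% of the members' and 67.3% of the subgroup's) and 225 lower genes (27.5% and 79.5%).

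Of the extracellular matrix lists, many genes were lower at P56. Of 24 genes of elastic fibres and matricellular proteins, 14 fell and 0 rose by edgeR's test (median log2 difference -1.27), of 18 matrix enzymes 11 fell and 0 rose (median -1.34), of 13 basement membrane genes 9 fell and 0 rose (median -1.26) and of 14 proteoglycan genes 8 fell and 0 rose (median -1.05). Of the 16 fibroblast markers, 11 fell and 0 rose (median -1.29). Over all genes 6.34% were lower and 2.67% higher, and 3.08% and 2.3% in the fibroblast-like subgroup. In the fibroblast-like subgroup the lists had 9 of 21, 10 of 18, 7 of 12, 5 of 14 and 7 of 16 genes lower and none higher, and by edgeR's test none of the 5 lists had a gene higher at an unadjusted p under 0.05 in the members or the subgroup. The subgroup was picked by the fibroblast markers, so its 7 of 16 is not an independent check. Fbln1, Fbln2, Lum, Pcolce and Hspg2 each stood in more than 1 of the lists, so the counts overlap. Without the P42 cauda library the members' counts were 9, 11, 7, 5 and 7. The collagen-high set, of which not every barcode had 4 gate markers, held 1635 barcodes at P42 and 23 at P56. In non-stromal barcodes of the cauda, the gate collagens took 0.659% of UMIs at P42 and 0.0181% and 0.0136% at P56, and the 16 fibroblast markers took up to 0.513% against a median of 0.0387% over libraries. The fibroblast-like subgroup made up 42.6% of the members at P42 and 28.3% at P56. The part of any of these in the age differences was not tested.

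Eln, which encodes elastin, stood at 129, 23.2 and 14.5 CPM in the caput, 171, 22.4 and 25.3 in the corpus libraries and 112, 45.8 and 35.5 in the cauda. All 3 P42 libraries were above all 6 P56 libraries, with a log2 difference of -1.97 (SE 0.19, edgeR adjusted p = 1.5e-05) and of -1.74 in the fibroblast-like subgroup. The elastin and collagen crosslinking enzyme Lox stood at 107, 29.8 and 18.2 in the caput, 253, 63.3 and 52.3 in the corpus libraries and 251, 67.5 and 35.5 in the cauda, also without overlap (log2 -1.80, SE 0.21, edgeR adjusted p = 6.92e-05; log2 -1.69 in the fibroblast-like subgroup). Its relative Loxl1 fell by 2.09 on the log2 scale (SE 0.23) and Loxl2 by 1.76 (SE 0.22). Col15a1, a collagen of the basement membrane zone, stood at 95.3, 19.9 and 14.1 in the caput, 132, 41.0 and 23.8 in the corpus libraries and 233, 26.8 and 16.7 in the cauda (log2 -2.26, SE 0.20, edgeR adjusted p = 1.02e-05). Its 3 P42 libraries were the highest, and in the fibroblast-like subgroup the difference was -1.93. The matrix metalloproteinase gene Mmp2 fell by 1.69 on the log2 scale (SE 0.21), while decorin, with a log2 difference of -0.34 (edgeR adjusted p = 0.219), was not called.

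Igf1, a growth factor, stood at 465, 145 and 125 CPM in the caput, 1176, 484 and 304 in the corpus libraries and 1376, 284 and 174 in the cauda, with the P42 library the highest of each segment (log2 -1.57, SE 0.19, edgeR adjusted p = 8.23e-05). The difference was -1.13 in the fibroblast-like subgroup. Of the other growth factor and receptor genes, 9 of 19 fell and 0 rose by edgeR's test (median -1.01), with counts of 3 without the P42 cauda, 4 with collagens under 2% and 5 with DESeq2, and 6 of 19 fell in the fibroblast-like subgroup, against 6.34% of all genes in the members and 3.08% in the subgroup, as for the lists that follow. Among the 9 were Fgf10 and Fgf7, ligands that act on epithelium, with log2 differences of -1.48 (SE 0.24; -1.32 in the subgroup) and -1.21 (SE 0.24). Fgf10 stood at 42.9, 16.6 and 14.5 in the caput, 50.03, 33.5 and 14.3 in the corpus libraries and 35.5, 5.55 and 2.61 in the cauda, with a median of 27.1 times the non-stromal level. Of 20 BMP, TGF-beta and activin genes, 11 fell and 0 rose (median -1.08; 7 of 19 in the fibroblast-like subgroup and 8 without the P42 cauda), including Tgfb3 by 1.51 on the log2 scale (SE 0.19). Of 17 Wnt genes 3 fell and 0 rose by edgeR's test (median -0.42), with 2 of 15 in the fibroblast-like subgroup, and 0 fell without the P42 cauda. Mgp had a log2 difference of -0.55 and was not called (edgeR adjusted p = 0.107).

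**Figure D4:**
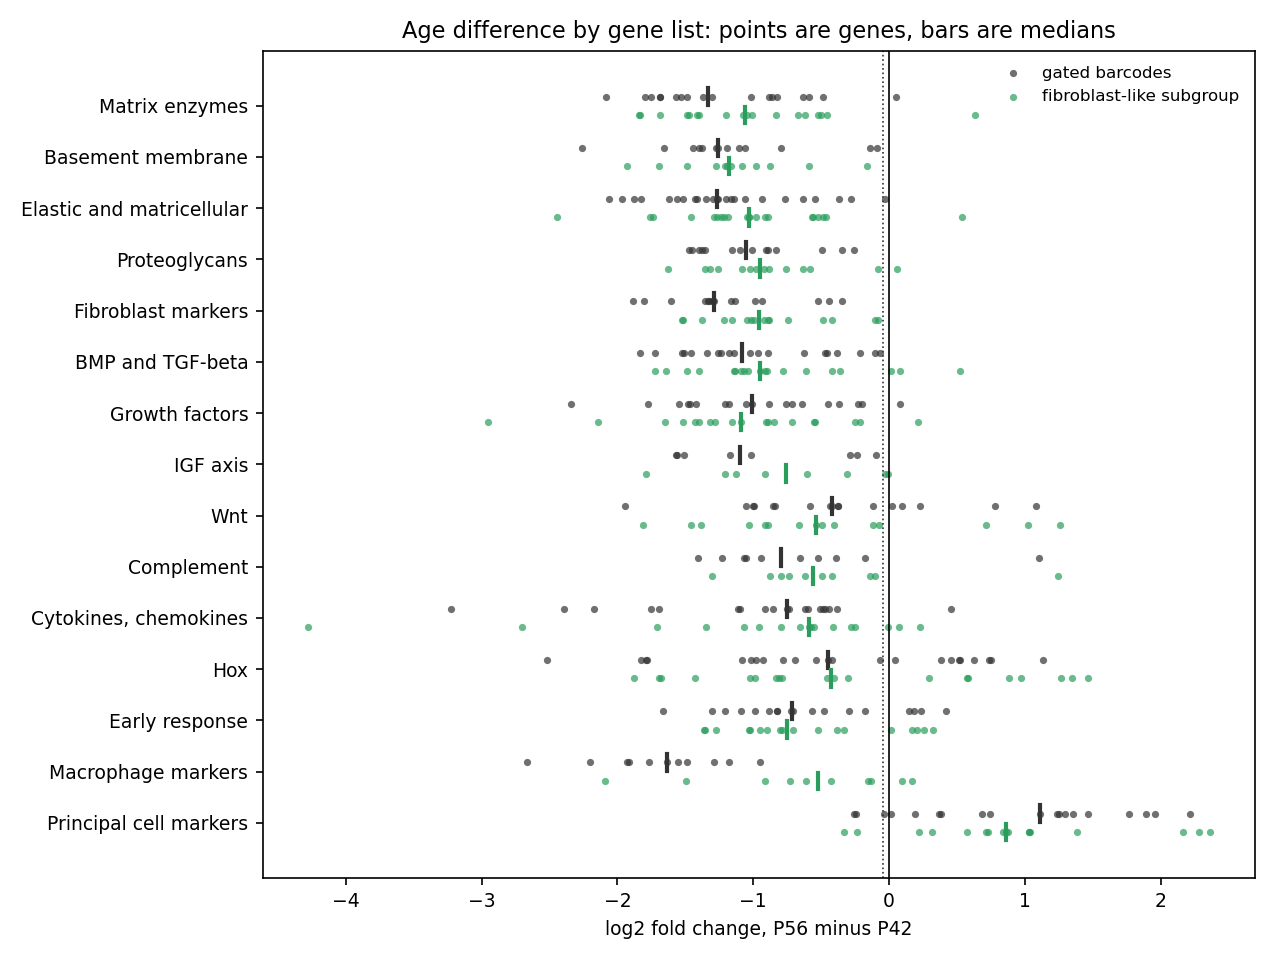
Log2 difference of P56 minus P42 for every tested gene of the lists in the members, (black) and in the fibroblast-like subgroup (green), with 1 point per gene, a bar at the median of the list, a solid line at 0 and a dotted line at the median of all genes tested in the members (-0.04). The medians of the matrix enzymes (-1.34) and fibroblast markers (-1.29) lay below the dotted line and that of the principal cell markers (1.11) above it.

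By the naming rule no gene was named as higher at P56, and 6 were named as lower. Car3, a carbonic anhydrase that fat cells express, was also among the leading genes of the fibroblast-like subgroup. It gave 311 UMIs at P42 (1.14, 19.8 and 103 CPM in caput, corpus and cauda) and none at P56. At P56 it was at least 132-fold lower than at P42 (floor of 3 counts over the group). Upk3b, a uroplakin gene of the mesothelium, fell by 4.99 on the log2 scale (edgeR adjusted p = 0.000822), the imprinted RNA H19 by 4.44 (0.0441) and the metalloproteinase gene Adam12 by 3.94 (0.00435). Lrrn4, also mesothelial, gave 30 UMIs at P42 and 1 at P56 (ratio 38.3, 6.36 to 1561), and the claudin gene Cldn15 28 and 2 (ratio 17.9, 4.50 to 155). The first 4 of these calls were lost without the P42 cauda, with an edgeR adjusted p of 0.0800 for Car3, 0.126 for Upk3b, 0.258 for H19 and 0.357 for Adam12. Those of Lrrn4 and Cldn15 were lost when any of several other libraries was left out (up to 0.0814 and 0.0850). Without the P42 cauda 0 of the 5 mesothelial markers tested were called, so Lrrn4 had no call there either.

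Markers of other cells moved with age in the members too. Of 10 endothelial markers 4 were lower (Cdh5, Eng, Kdr and Pecam1), of 9 halo and T cell markers 4 and of 6 mesothelial markers 3, while 2 of 7 clear and narrow cell markers were higher, against 6.34% of all genes lower and 2.67% higher. In the fibroblast-like subgroup these were 1 of 8, 1 of 3, 0 of 6 (1 at an unadjusted p under 0.05) and 2 of 6. The 3 mesothelial calls in the members became 0 of 5 without the P42 cauda and 0 of 5 with at least 5 gate markers. Of 11 macrophage markers, 10 were lower at P56 and 0 higher by edgeR's test (median log2 -1.63), against 1 of 10 in the fibroblast-like subgroup and 3 without the P42 cauda. Lyz2, the lysozyme of macrophages, stood at 1682 CPM in the P42 cauda and at 51.2 to 363 elsewhere. The macrophage list took 0.0170% to 0.403% of the members' UMIs in the cauda libraries and 0.0140% to 0.686% of those of non-stromal barcodes, and all 11 of its genes had a UMI in members. Of 19 principal cell markers 6 were higher at P56 and 0 lower by edgeR's test (median 1.11), and 5 of 17 in the fibroblast-like subgroup. Crisp1, a secreted sperm-binding protein, differed by a log2 of 2.21 and Gpx5 by 1.24, at medians of 0.709 and 0.703 of the non-stromal level. The part of these cells in the age differences was not tested.

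The segmental differences of the members were set against those of the collagen-high barcodes, in a test of the interaction of population and segment. Only 4 libraries held at least 10 collagen-high barcodes (the 3 of P42 and the P56 replicate 1 cauda), with 32 in the P42 caput and 1386 in the P42 cauda. The caput and the corpus had 1 library each, so the spread came from the 2 cauda libraries only, and in tests on simulated data this comparison recovered no planted difference. Of 13320 genes, 21 (0.158%) were called, and 508 had an unadjusted p under 0.05. Against the 753 myoid barcodes, a test chosen after seeing the data that used all 9 libraries, 16 of 8856 genes (0.181%) were called, and 493 had an unadjusted p under 0.05.

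Postn had a different segmental order in members and myoid barcodes. In myoid barcodes it stood at 97.5, 124 and 29.3 CPM in the caput, 133, 17.7 and 11.4 in the corpus libraries and 174, 15.3 and 9.41 in the cauda. At P56 the caput was thus highest in myoid barcodes, while the corpus was highest in members. The P56 corpus libraries held only 25 and 14 myoid barcodes, so their myoid levels rest on few cells. The corpus minus caput difference was 3.52 (log2) larger in the members (edgeR adjusted p = 0.000159).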

How the data were processed

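The authors trimmed reads with fastp, assigned barcodes and counted UMIs with UMI-tools, mapped with STAR 2.7.3a to GRCm38 p6 and assigned reads to genes with featureCounts. They deposited raw UMI counts per gene and barcode (32195 genes), all of them whole numbers, without normalization. From these deposited counts the members were gated as stated, UMIs were summed per library (23114756 to 50655384 UMIs in all barcodes) and globin genes were left out. Sums were tested with edgeR 4.0.16 in R 4.3.3 (filterByExpr, TMM, quasi-likelihood F tests, Benjamini-Hochberg adjustment, calls at adjusted p under 0.05 and log2 change of at least 1). DESeq2 1.42.0, no low-count filter, no TMM, stricter gates, no block and leaving out libraries were alternatives. Shares and mitochondrial percentages were tested by exact permutation within pools. Subgroups used scanpy 1.11.5 and leidenalg 0.10.2 with 30 components and 15 neighbours, and figures matplotlib 3.10.9 (pandas 2.3.3, scipy 1.17.1 and numpy 2.4.6 in Python 3.11.15).

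The members and gene lists were chosen with earlier results of these data known. Named genes were the gate genes and Mgp, and the 20 genes with the highest median ratio to non-stromal barcodes (mean of at least 50 CPM, ratio of at least 2 in each library). By size of change, 8 called genes were named per segment and up to 6 per direction of age. Each was at least 2 times the non-stromal level in the libraries where it was high. Up to 6 called genes per interaction were named by smallest p. They were at least 2 times the non-stromal level in the members or in the other population. Genes of the lists were named beside them, after their values were seen. In tests on simulated data each comparison made calls except the interaction with collagen-high barcodes, which recovered none of the planted differences. Libraries of a pool share their mice by the study design, so pool was a block. Deviations from segment means correlated at 0.0609 to 0.478 within pools (9 pairs, 7 over 0.1) and at -0.411 to 0.205 between pools (18 pairs). Intervals and floors cover counting error only. Separate pools were separate mice, and P-values for age rest on the spread between P56 replicates (3 residual degrees of freedom).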

Additional observations from a re-analysis of the deposited data

Results flagged for a closer look

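These genes were singled out because their segmental difference in the members differed from that in another population of the same libraries, by edgeR's test of the interaction. Against collagen-high barcodes, the test used 4 libraries with 1 residual degree of freedom. The caput and the corpus had 1 library each, so the spread came from the cauda libraries only, and the adjusted p-values describe these libraries and not the segments. In tests on simulated data no planted difference was recovered. The genes were Cpxm2 (edgeR adjusted p = 3.54e-07), Rgs13 (0.000159), Angptl7 (0.000159), Tnc (0.000807), Rbp4 (0.00327) and Col8a1 (0.00758). In each of the 6, the level was highest in the 32 collagen-high barcodes of the P42 caput. Cpxm2 stood there at 312 CPM, against 27.3, 24.9 and 19.2 in the collagen-high barcodes of the P42 corpus, P42 cauda and P56 replicate 1 cauda, and at 9.49, 3.13, 18.3 and 27.7 in the members of the same 4 libraries. Angptl7 stood at 223 in that caput library and at 0 to 3.75 in the other 3, against 0.462 to 3.82 in the members. No gene was called without the library as a block.

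Against myoid barcodes the genes were Postn (edgeR adjusted p = 0.000159), Stmn2 (0.00236), Aspn (0.0069), Filip1l (0.0143), Ly6c1 (0.0143) and Dner (0.0419). Ly6c1, which encodes a surface protein of endothelial cells and fibroblasts, stood at 192, 66.2 and 126 in the caput members, 731, 708 and 423 in the corpus libraries and 600, 370 and 257 in the cauda, and in myoid barcodes at 404, 81.2 and 428, 468, 171 and 102, and 599, 155 and 104. The caput of the members was below their corpus without overlap, while the myoid ranges overlapped. Aspn, a small leucine-rich proteoglycan, averaged 192 ± 36.3 in the caput and 119.5 ± 143 in the cauda of myoid barcodes (SD, n = 3) and stood at 29.7 ± 12.8 and 73.7 ± 79.4 in the members, so the ranges were wide beside the change. Dner, a Notch ligand, had the opposite order, with 77.4, 29.0 and 28.2 in the caput members and 30.9, 12.9 and 3.65 in the cauda, against 17.2, 3.32 and 2.66 and 48.7, 11.99 and 4.03 in myoid barcodes. The low P56 myoid levels came from 86 and 46 barcodes in the caput and 117 and 88 in the cauda. No counting interval was made for them. The cause of these differences was not tested.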

How the results depend on the processing

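Counts of called genes depended on which barcodes were summed and on the pool block. Against 1578 segmental genes, at least 5 gate markers gave 1041 calls, the fibroblast-like subgroup 476, and no replicate block 1033, while no low-count filter gave 2417. For corpus against caput (1137), these were 719, 299 and 743 for the first 3 settings. For cauda against corpus (277), they were 166, 108 and 78, with 667 without the filter, and for cauda against caput (1369) the fibroblast-like subgroup gave 460. Against 1162 age genes, collagens under 2% gave 729, the fibroblast-like subgroup 494, DESeq2 572 and sums over a pool's segments 211, while unscaled library sizes gave 2142. Against 21 interaction genes there were 5 with at least 5 gate markers, 1 with carriers of other cells' markers left out, 2 in the fibroblast-like subgroup, 6 outside it, 41 unscaled, and 0 without the block or with DESeq2. The share of corpus minus caput (-2.23 percentage points) turned to 0.0960 with carriers of other cells' markers left out and to 1.05 in the fibroblast-like subgroup, and was -0.822 after thinning. The mitochondrial difference (9.83 points) was 8.82 with at least 5 gate markers and 8.89 in the fibroblast-like subgroup.

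Leaving out libraries or pools gave 897 (without P56 replicate 1) to 2388 (without the P42 cauda) segmental genes, 673 to 1515 for corpus against caput, 71 to 867 for cauda against corpus, 933 to 1758 for cauda against caput, 355 (without the P42 cauda) to 1382 age genes, -2.98 to -0.844 points of share and 8.06 to 12.4 points of mitochondrial UMIs. Without P42 or P56 replicate 1 the interaction could not be fitted, and P56 replicate 2 supplied none of its 4 libraries, so leaving it out kept the 21 genes by construction. The age test had no residual degrees of freedom without a P56 replicate. Over the alternatives, the 24 named segmental genes kept their call in 505 values and lost it in 39, and the 6 named age genes kept it, or without a test stayed within 1 SE, in 92 and lost it in 36, while 3 values without a test moved by more than 1 SE. There was no reversal in either. The cause of these shifts was not tested.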

Other observations

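Further lists describe the members. Of 24 mesenchymal transcription factors tested for age, 8 fell and 1 rose by edgeR's test with Benjamini-Hochberg adjustment (median log2 difference -0.90), against 6.34% and 2.67% of all genes tested, and of 20 tested by segment, 7 were called, against 14.8% of all genes. Tcf21, a regulator of urogenital mesenchyme, stood at 86.5, 40.6 and 31.2 CPM in the caput, 188, 123 and 82.4 in the corpus libraries and 113, 44.4 and 21.4 in the cauda (log2 corpus minus caput 1.39, SE 0.22, edgeR adjusted p = 0.0012), and it was the one gene of the list called in the fibroblast-like subgroup. The order within each pool was corpus above the other segments. Of 8 genes of the IGF axis, 5 were called by segment in the members and 0 in the fibroblast-like subgroup by edgeR's test (3 at an unadjusted p under 0.05), and 4 fell at P56 (2 without the P42 cauda), against 14.8% of all genes by segment and 6.34% lower by age. The 5 became 2 without the block or without P56 replicate 1 and 3 without P56 replicate 2. Of 9 steroid hormone genes, Greb1 and Srd5a2 were called as segmental, near the 14.8% of all genes. In the fibroblast-like subgroup Greb1 was too low to be tested and Srd5a2 was not called (edgeR adjusted p = 0.176), while Esr1, an oestrogen receptor, was called with the cauda highest (edgeR adjusted p = 0.0235). Of 22 lipid and retinoid genes, 2 rose and 7 fell at P56, with 7 of 20 called by segment, to be read against the same shares of all genes. In the fibroblast-like subgroup 1 of 20 rose and 2 fell, against 2.3% and 3.08% of all its genes. By segment 2 of 17 were called there, against 6.89%.

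By segment, lists of other cells had these counts of called genes: 0 of 2 pericyte, 0 of 3 Schwann and 0 of 5 halo and T cell markers by edgeR's test (1, 1 and 0 at an unadjusted p under 0.05), and 2 of 8 endothelial, 4 of 5 mesothelial, 1 of 7 basal, 1 of 7 clear and narrow and 2 of 10 sperm markers. Over all genes tested 14.8% were called, a share that the counts for basal, clear and narrow and sperm markers came near. Of the 4 mesothelial genes, the caput was highest for 1 and another segment for 3. The 3 became 1 without the replicate block, without P56 replicate 1 or with library sizes unscaled. In the fibroblast-like subgroup 1 of 3 mesothelial markers was called, against 6.89% of all its genes.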
